A study of Bos taurus with 3 samples.

Results

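Kinesins are motor proteins that use ATP to move along microtubules. Some build the mitotic spindle, align chromosomes and drive the separation of daughter cells, and cells make them mainly around division. Others carry vesicles, organelles and ciliary cargo at all times, and a few shorten microtubules instead of moving along them. In cultured mesenchymal stromal cells, which divide on plastic and are large and spread, both kinds are at work in the same culture.

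The genes described here are all those whose symbol is KIF followed by a number and, for some, a letter. They are 37 of the 21861 genes listed in the matrices, of which 17282 carry a symbol. Kinesins with other symbols, such as CENPE and KIFC1, are no members and were followed as a separate list. The question was which kinesins follow the topoisomerase gene TOP2A and the mitotic cyclin gene CCNB1 from cell to cell, which do not, and how their levels compare between the 3 cultures.

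The libraries were made with 10x Genomics 3′ v3.1 chemistry from untreated wild-type (WT) cultures of adipose tissue, bone marrow and peripheral blood. All came from 1 healthy Holstein-Frisian cow in its first lactation, with 1 library per tissue. The culture medium was DMEM of low glucose with 30% serum (FBS), and cells were taken once colonies could be seen. The 3 cultures share the donor, and no tissue has a replicate, so no test was made. Intervals are exact 95% intervals that cover counting error only, and differences between cultures cannot be told apart from differences between libraries.

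A cell was a barcode above a UMI total set by each library (UMIs, unique molecular identifiers, count captured RNA molecules). This left 6088 adipose, 9281 bone marrow and 3192 blood cells with 94838893, 98772664 and 89171113 UMIs and medians of 14391, 9096 and 24884 UMIs per cell. Between 4 and 10 cell barcodes were shared by any pair of libraries. Of 16 stromal markers, 11 to 13 reached 50 CPM (UMIs per 1000000 UMIs of the kept cells) in each library, and their sum was 24768 to 35308 CPM. The 18 macrophage markers summed to 15.2 CPM in adipose, 756 in bone marrow and 243 in blood, and 4 of them were at 0 in adipose. The 8 neutrophil markers summed to 0.295, 1417 and 14.8 CPM.

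Kinesin RNA was abundant in each culture, and 1 gene made up a large part of it. The 37 genes had 1513 CPM in adipose, 1218 CPM in bone marrow and 1547 CPM in blood as their sum. KIF5B, the heavy chain of conventional kinesin that carries organelles and mRNA outward from the cell centre, held 41.2%, 39.1% and 45.4% of these UMIs. At least 1 UMI was found for 32, 35 and 34 of the 37 genes. Of the members, 19 reached 10 CPM in some library, 6 peaked between 1 and 10 CPM, and 12 stayed under 1 CPM in all 3 libraries.

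Of the mitotic motors among the members, KIF20B, which acts in cytokinesis, was the most abundant. It read 133 CPM in adipose, 109 in bone marrow and 122 in blood. The kinetochore kinesin CENPE, which is no member, was higher, at 287, 207 and 264 CPM. KIF11, the motor that pushes the spindle poles apart, read 92.3, 67.1 and 87.5 CPM. UMIs count each RNA once from its 3′ end, so these CPM levels were not divided by gene length. KIF22, a motor carried on chromosome arms, was at 67.3, 62.9 and 64.8 CPM, and KIF23, the motor of the centralspindlin complex at the division plane, at 57.0, 53.7 and 61.1 CPM. KIF2C, which shortens microtubules at centromeres, read 62.8, 45.1 and 42.7 CPM and was highest in adipose. KIF4A, a chromosome-bound motor that also works in the spindle midzone, read 54.1, 39.7 and 50.4 CPM. The remaining mitotic motors were lower. KIF15, which helps KIF11 keep the spindle bipolar, was at 45.2, 38.9 and 39.4 CPM, and KIF20A, which brings the chromosomal passenger complex to the midzone, at 42.5, 35.3 and 38.1 CPM. KIF18A, which damps the movements of chromosomes at the metaphase plate, was at 31.8, 20.2 and 31.9 CPM and was lowest in bone marrow. KIF14, a cytokinesis motor, was at 13.2, 10.1 and 13.3 CPM.

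Among the transport motors and relatives KIF5B stood far above the rest, at 623 CPM in adipose, 477 in bone marrow and 701 in blood. KIF2A, a microtubule-shortening kinesin outside as well as inside mitosis, read 95.9, 68.5 and 87.2 CPM. KIF1C, a fast carrier of vesicles, read 54.0, 49.1 and 57.5 CPM. The heterotrimeric kinesin-2 motor, which enters cilia, was read through both of its motor chains. KIF3A was at 48.7, 50.004 and 48.2 CPM and KIF3B at 16.4, 16.5 and 19.4 CPM, so that KIF3A gave the more UMIs in each library. KIF27, a relative of the Hedgehog regulator KIF7, read 19.0, 15.2 and 20.7 CPM. The endosome motors KIF13A and KIF16B read 16.6, 12.2 and 21.0 CPM and 10.1, 8.99 and 10.25 CPM. KIF21A, which restrains microtubule growth at the cell cortex, read 8.50, 13.3 and 8.48 CPM and was highest in bone marrow. The 6 genes that peaked between 1 and 10 CPM were KIF3C, KIF7, KIF9, KIF13B, KIF18B and KIF24.

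The 12 members under 1 CPM included KIF1A, an axonal vesicle motor, which had 6, 4 and 4 UMIs. KIF5A and KIF5C, the neuronal forms of conventional kinesin, stayed at or under 0.314 and 0.901 CPM. KIF2B and KIF26A had 0 UMIs in each library, which allows up to 0.0316, 0.0304 and 0.0336 CPM (3 counts of the total) in adipose, bone marrow and blood. The other members under 1 CPM were KIF6, KIF12, KIF17, KIF19, KIF21B, KIF25 and KIF26B.

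**Figure D1:**
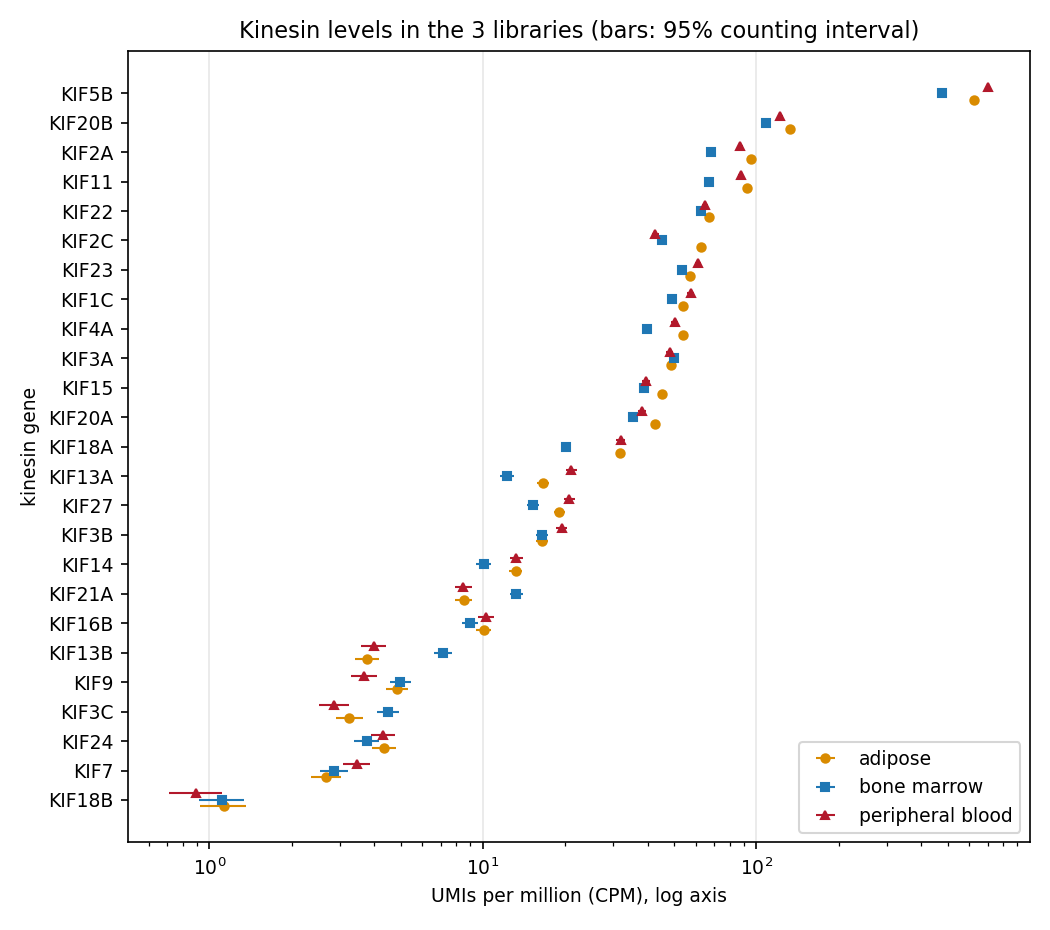
Levels of the 25 kinesins that reached 1 CPM in some library. The x axis gives CPM on a log scale, the rows are genes, the symbols are the 3 libraries and the bars are 95% counting intervals. KIF5B lies at 477 to 701 CPM, to the right of all others, and the 3 symbols of a gene mostly lie close together.

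Between cultures no kinesin of at least 10 CPM was 2-fold apart. A gene counted as apart at a CPM ratio of at least 2 with at least 10 CPM in the higher library. None of 19 members met this between adipose and bone marrow, where 8.47% of all genes at that level did. None of 18 met it between adipose and blood (6.29% of all genes) and none of 19 between bone marrow and blood (8.2% of all genes). Of the 19 members at 10 CPM or more, 16 kept all 3 libraries within 1.5-fold, as did 72.6% of all genes at that level.

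The widest gaps were in KIF18A, KIF13A and KIF21A. KIF18A was 1.58-fold higher in adipose than in bone marrow (1.49 to 1.67). KIF13A in bone marrow was 0.581 times the level in blood (0.540 to 0.625). KIF21A in adipose was 0.641 times the level in bone marrow (0.587 to 0.701), and KIF2C was 1.47-fold higher in adipose than in blood (1.41 to 1.53). As a group the kinesins were lower in bone marrow. Their median ratio of adipose over bone marrow was 1.22 over the 19 members, beside 1.06 over all genes at that level, and the median ratio of bone marrow over blood was 0.853, beside 1.00 over all genes. The share of cells with TOP2A or CCNB1 differed as well, as given next. The ratios in cells of like class are given further below, and the part of the share in them was not tested.

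To follow division per cell, each cell was thinned at random to 3000 UMIs and put in a class by whether a UMI of TOP2A, of CCNB1, of both or of neither remained. TOP2A untangles DNA and is made from S phase to mitosis, while CCNB1 is the cyclin that starts mitosis. Cells with both made up 15.7% of the adipose culture (957 cells), 11.6% of bone marrow (1076) and 11.6% of blood (371). Cells with neither made up 41.2% (39.9 to 42.4%), 51.9% (50.9 to 52.9%) and 53.7% (52.0 to 55.5%). A further 31.5%, 26.5% and 25.6% held TOP2A only, and 11.6%, 10.0% and 9.05% held CCNB1 only. These classes are ranges along a continuous level and not cell types, since at 3000 UMIs many cells that express a gene show none of its UMIs. The cells with neither still read TOP2A at 111, 76.1 and 76.0 CPM, against 648, 674 and 786 CPM in the cells with both.

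The levels of each kinesin were then read from all UMIs of the cells in a class. Kinesins summed to 1836, 1602 and 2082 CPM in cells with both and to 1267, 979 and 1244 CPM in cells with neither, in the order adipose, bone marrow and blood. Cells with both were also deeper, with medians of 15528, 10885.5 and 30800 UMIs against 14019, 8387 and 22719. CPM removes the total, and the part of depth beyond that was not tested. Cells rich in macrophage markers, described last, made up 417 of the bone marrow and 44 of the blood cells with neither, and without them the counts of 1, 9 and 13 members given next were the same.

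The kinesins ran from members that were higher in cells with TOP2A and CCNB1 to members that were nearly level, with others between. The rule counted a gene as following where its CPM ratio, cells with both over cells with neither, was at least 3 in each library, and as not following where it was under 2 in each library. It needed 50 UMIs over both classes in each library, which 24 of the 37 members and 10271 of all genes had. KIF23 alone followed, beside 0.253% of all genes. Another 10 lay between, and 13 did not follow, as 98% of all genes did not. At a ratio of at least 2 in each library the count was 9 members (KIF2C, KIF4A, KIF11, KIF14, KIF15, KIF18A, KIF20B, KIF22 and KIF23), beside 0.857% of all genes. The count at 3-fold depended on the adipose library: without it, 6 kinesins followed, against 2 without blood and 1 without bone marrow. It was 6 (KIF11, KIF14, KIF15, KIF18A, KIF20B and KIF23) when cells were thinned to 6000 UMIs, beside 0.597% of all genes, and 0 when 2 UMIs of each gene were asked for, beside 0.143% of all genes.

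KIF23 read 30.1 CPM in adipose cells with neither gene and 92.6 CPM in those with both, a ratio of 3.08 (2.84 to 3.33). In bone marrow it read 27.2 and 99.7 CPM (3.67, 3.39 to 3.97), and in blood 27.6 and 119.8 CPM (4.35, 4.02 to 4.69). The cells with neither thus read alike in the 3 cultures, and those with both read higher in each. Its lowest ratio over the libraries ranked 24 among the 10271 genes measured. TOP2A and CCNB1, which define the classes, were kept among these genes, at ranks 1 and 4, and in the shares of all genes above. KIF20B went from 72.5 to 211 CPM in adipose (2.92, 2.77 to 3.07), from 57.2 to 191 CPM in bone marrow (3.35, 3.17 to 3.54) and from 56.6 to 243 CPM in blood (4.28, 4.06 to 4.52). KIF11 went from 53.3 to 141 CPM (2.64), from 35.1 to 121 CPM (3.45) and from 42.7 to 166 CPM (3.89). Of the spindle and cytokinesis motors, the low-level KIF14 had ratios of 2.86 (2.42 to 3.38), 4.43 (3.68 to 5.35) and 3.92 (3.32 to 4.64).

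KIF18A was higher to a like degree, with ratios of 2.79, 3.91 and 3.47, and KIF15 with 2.42, 3.11 and 3.85. Of the centromere and chromosome motors, KIF2C had ratios of 2.12, 2.67 and 3.59, KIF4A 2.13, 2.56 and 2.85, and KIF22 2.02, 2.24 and 2.75. KIF20A had the lowest ratios of the 10 mitotic motors with 50 UMIs in each library, with 1.84 (1.69 to 2.01), 1.84 (1.67 to 2.03) and 2.45 (2.24 to 2.69). It was also found outside cells: in barcodes of 10 to 100 UMIs it read 83.6 CPM in adipose, against 42.5 CPM in the kept cells. The part of this free RNA in its ratio was not tested. KIF24, a microtubule-shortening kinesin of centrioles, had ratios of 1.75 (1.33 to 2.30), 1.70 (1.24 to 2.31) and 2.30 (1.71 to 3.06) at levels under 7 CPM. Just outside the minimum of 50 UMIs lay KIF18B, a partner of KIF2C on astral microtubules. It had 38 UMIs in cells with both and 24 in cells with neither in adipose (ratio 3.73, 2.18 to 6.49), 29 and 26 in bone marrow (4.16, 2.36 to 7.35), and 24 and 13 in blood (6.49, 3.18 to 13.9).

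The 13 members that did not follow had median ratios of 1.10, 1.11 and 1.10 in adipose, bone marrow and blood, beside 1.02, 1.04 and 1.015 over all genes. KIF5B read 624 CPM in adipose cells with neither gene and 628 CPM in those with both (1.01, 0.983 to 1.03). In bone marrow it read 462 and 505 CPM (1.09, 1.06 to 1.12) and in blood 685 and 749 CPM (1.09, 1.07 to 1.12). The vesicle motor KIF1C had ratios of 1.05, 1.05 and 1.05, and KIF2A 1.10, 1.22 and 1.19. The kinesin-2 chains differed a little: KIF3A had 1.03, 1.16 and 1.10, and KIF3B 1.29 (1.12 to 1.49), 1.45 (1.25 to 1.67) and 1.47 (1.29 to 1.69). KIF3B was the steepest of the 13 in bone marrow and blood. The endosome motors KIF13A and KIF16B had 1.13, 1.15 and 1.07 and 1.30, 0.919 and 1.16. KIF9, which acts in motile cilia, was under 1 in all 3 libraries, at 0.753 (0.559 to 1.003), 0.903 (0.673 to 1.196) and 0.680 (0.459 to 0.981). KIF13B was under 1 in each as well, at 0.983, 0.960 and 0.928, with intervals that span 1; without the cells rich in macrophage markers it read 1.01 in bone marrow and 1.04 in blood. The others were KIF3C, KIF7, KIF21A and KIF27, with ratios between 1.05 and 1.36. Nearest to each other across the edge of the 13 were KIF24, at 1.70 in bone marrow, and KIF3B, at 1.45.

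**Figure D2:**
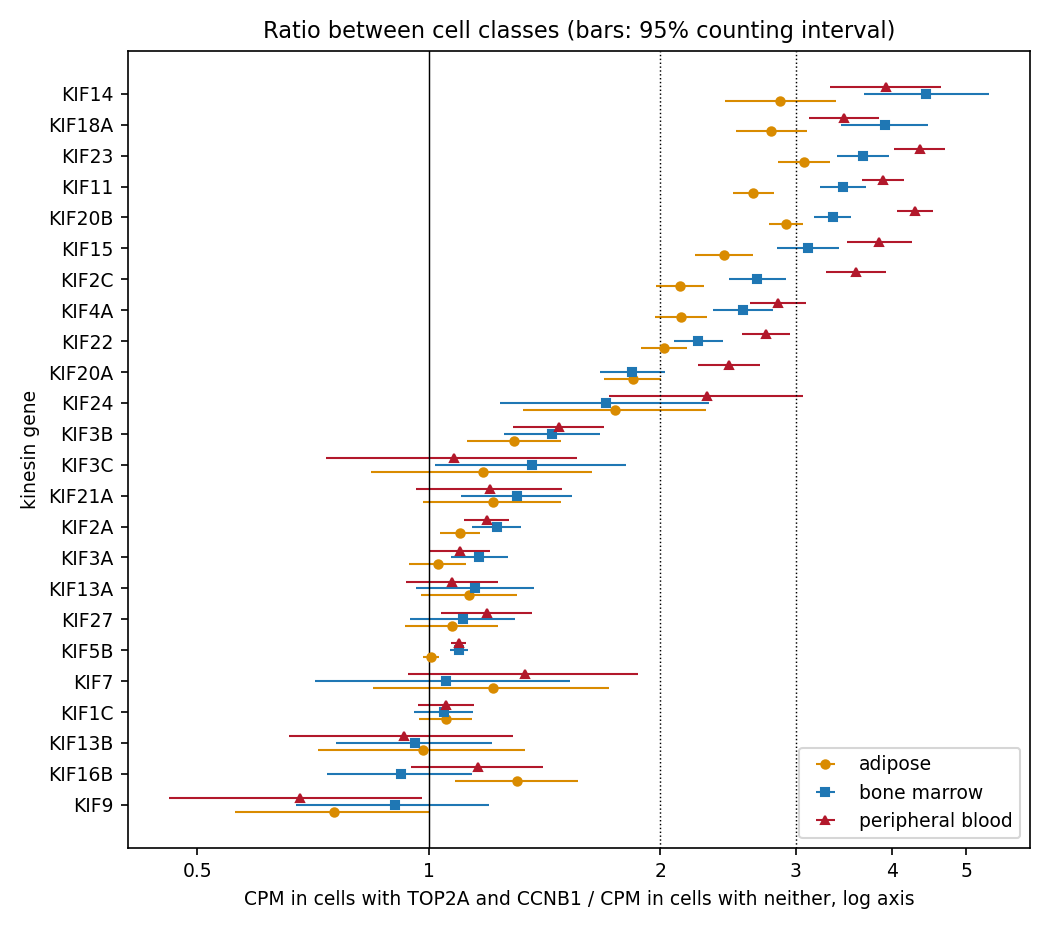
Ratio of CPM in cells with TOP2A and CCNB1 over CPM in cells with neither, for the 24 kinesins with 50 UMIs in each library. The x axis is the ratio on a log scale, symbols are libraries, bars are 95% counting intervals and dotted lines mark 2 and 3. The 10 graded motors described next lie to the right, from KIF20A at 1.84 upward, KIF24 lies just left of them in bone marrow, and KIF5B lies near 1.

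Cells were also ranked by the summed UMIs of TOP2A and CCNB1 at 3000 UMIs, in 5 bins from 0 to 5 or more. This cuts the same UMIs in another way, and the bin of 0 is the class with neither, so it is no independent check. Of the 24 measured members, 10 had a higher CPM at every step in each library, as did 2.1% of all genes. These were KIF20A and the 9 members named above at 2-fold. KIF23 went from 30.1 CPM in adipose cells with 0 to 54.3, 74.6, 93.3 and 111 CPM in the bins of 1, 2, 3 to 4 and 5 or more. In blood it went from 27.6 to 62.1, 94.1, 113 and 149.5 CPM. KIF5B over the same bins read 685, 681, 728, 747 and 758 CPM in blood and 624, 622, 616, 629 and 630 CPM in adipose. The 10 graded members were picked by this rise, after their values were seen. From the bottom to the top bin they were higher by 2.04 to 3.81 times in adipose, 2.31 to 5.81 times in bone marrow and 3.12 to 5.43 times in blood. The 13 that did not follow ranged from 0.848 to 1.52, from 0.703 to 1.58 and from 0.397 to 1.78 times. The lowest of these, in blood, was KIF9. KIF24, in neither group, was higher by 2.11, 1.60 and 2.03 times. In adipose this was above the graded KIF20A and KIF22, at 2.04 and 2.07. The top bin held 341, 434 and 181 cells.

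**Figure D3:**
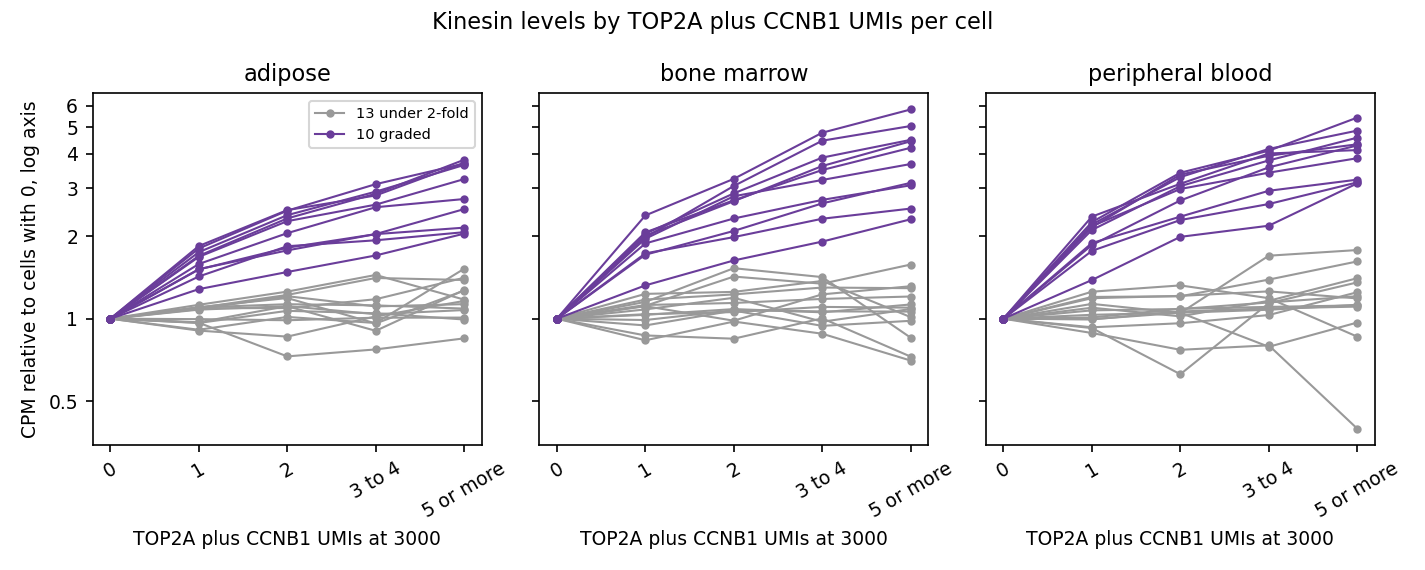
Kinesin levels across 5 bins of TOP2A plus CCNB1 UMIs per cell thinned to 3000 UMIs, 1 panel per library. The y axis is the CPM of a gene divided by its CPM in cells with 0, on a log scale. There is 1 line per gene, with 10 graded members in purple and the 13 that did not follow in grey. KIF24, in neither group, is not drawn. The purple lines climb at each step, which is how their genes were picked. In the top bin they reach between 2.04 and 5.81, and the grey lines stay between 0.397 and 1.78.

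Single cells gave the same picture with more scatter. Pearson's r of a kinesin with the sum of TOP2A and CCNB1 (natural log of 1 plus UMIs per 10000) was 0.57, 0.54 and 0.75 for KIF20B over 6088, 9281 and 3192 cells of adipose, bone marrow and blood. TOP2A and CCNB1 themselves had an r of 0.37, 0.38 and 0.51, which is gene with gene and not with a sum. The like values of KIF20B were 0.39, 0.38 and 0.63 with CCNB1 and 0.53, 0.51 and 0.68 with TOP2A. Over the 10 graded members r ran from 0.20 to 0.57, from 0.22 to 0.54 and from 0.39 to 0.75. For KIF24, in neither group, r was 0.070, 0.078 and 0.15. Over the 13 that did not follow it ran from −0.013 to 0.076, from −0.020 to 0.12 and from −0.039 to 0.17. The highest of these in bone marrow was KIF5B and in blood KIF2A, both of them abundant, with KIF5B at 0.16 in blood. KIF5B also had an r of 0.18 with the log UMI total in blood. Cells of 1 library share its culture and free RNA, and their depth varies: KIF20B had an r of 0.11, 0.16 and 0.22 with the log UMI total. At 3000 UMIs, 23.8% (21.8 to 25.9%) of adipose cells with a KIF20B UMI held both TOP2A and CCNB1, against 12.4% of cells without one. In bone marrow the shares were 20.7% (19.0 to 22.4%) and 8.69%, and in blood 23.1% (20.2 to 26.2%) and 7.78%. For KIF1C they were 15.4% and 15.8% in adipose.

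Within cells of like class the members of at least 10 CPM still differed by less than 2-fold between cultures. In cells with both genes, 0 of 19, 0 of 18 and 0 of 19 members were 2-fold apart in the pairs adipose and bone marrow, adipose and blood, and bone marrow and blood, against 7.86%, 5.74% and 7.58% of all genes. In cells with neither the counts were 0 of 17, 0 of 16 and 0 of 17, against 9.4%, 6.65% and 9.09%. With 16 to 19 members, 0 lies near these shares. The median kinesin ratio of adipose over bone marrow was 1.15 in cells with both and 1.27 in cells with neither, beside 1.05 and 1.06 over all genes. That of bone marrow over blood was 0.793 and 0.865, beside 1.00 and 1.00. The gap of KIF2C between adipose and blood lay in the cells with neither, where it read 42.7 and 21.8 CPM (1.96, 1.81 to 2.12), more than in the cells with both, at 90.5 and 78.3 CPM (1.16, 1.06 to 1.25). KIF18A was at 17.5 and 9.70 CPM in adipose and bone marrow cells with neither (1.80, 1.60 to 2.04). The cells with neither were not alike in the reference genes. TOP2A read 111, 76.1 and 76.0 CPM in adipose, bone marrow and blood, and CCNB1 56.7, 37.9 and 37.0 CPM. The part of this in the gaps was not tested. KIF13A and KIF21A kept their order in both classes: bone marrow over blood gave 0.586 and 0.547 for KIF13A, and 1.66 and 1.53 for KIF21A, in cells with both and with neither.

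The ratios also differed between libraries. Of the 10 graded members, 9 had their lowest ratio in adipose, as did 36.8% of all measured genes and 95.5% of the 88 at 2-fold in each library. In blood 8 had their highest, as did 30.9% of all measured genes and 89.8% of the 88. The graded kinesins thus did as most genes at 2-fold did. TOP2A, which defined the classes, had ratios of 5.86, 8.86 and 10.3 in adipose, bone marrow and blood, and CCNB1 4.05, 6.28 and 5.50. The lower adipose ratios went with higher levels in the cells with neither: the 10 members summed to 366 CPM there, against 275 in bone marrow and 284 in blood, while in cells with both they summed to 903, 814 and 1015 CPM. With 1 library per tissue, this difference was not tested.

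Cells with only 1 of the reference genes differed in the level of some mitotic motors. The TOP2A-only cells were deeper, with medians of 15593, 10282 and 28186 UMIs in adipose, bone marrow and blood. The CCNB1-only cells had 13085.5, 8249 and 22098 UMIs, and the part of depth was not tested. The ratio of CPM in CCNB1-only cells over TOP2A-only cells was lowest for KIF18A, at 0.578 (0.502 to 0.664) in adipose, 0.510 (0.425 to 0.607) in the bone marrow library and 0.484 (0.410 to 0.568) in that of blood. It was the only member at or under 1/1.5 in each library, as were 0.428% of all genes. No member was at 1.5 or more in each library, as were 0.0389% of all genes. KIF18A read 2.42, 3.19 and 2.85 times its level in cells with neither when TOP2A alone was found, and 1.40, 1.63 and 1.38 times when CCNB1 alone was found. The ratio of CCNB1-only over TOP2A-only cells was 0.682, 0.724 and 0.758 for KIF14 and 0.777, 0.763 and 0.868 for KIF23. It was 0.795, 0.769 and 0.833 for KIF15, 0.804, 0.819 and 0.867 for KIF20B and 0.861, 0.731 and 0.828 for KIF11. These and KIF18A, 6 in all of the members at 2-fold in each library, were under 1 in each library. So were KIF2A, KIF7, KIF16B and KIF24, which were not graded. The median over all measured genes was 0.995, 0.998 and 0.997, and the share of all genes under 1 was not counted. KIF22 and KIF4A lay near 1. At the other end were KIF20A, at 1.01 (0.910 to 1.13), 1.09 (0.974 to 1.22) and 1.28 (1.14 to 1.43), and KIF2C, at 1.03, 1.04 and 1.15. The median over the 88 genes of at least 2-fold in each library was 0.807, 0.763 and 0.790. KIF20A, KIF2C, KIF22 and KIF4A lay above that median in each library, and KIF18A and KIF14 below it. KIF11, KIF15, KIF20B and KIF23 lay on both sides of it.

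**Figure D4:**
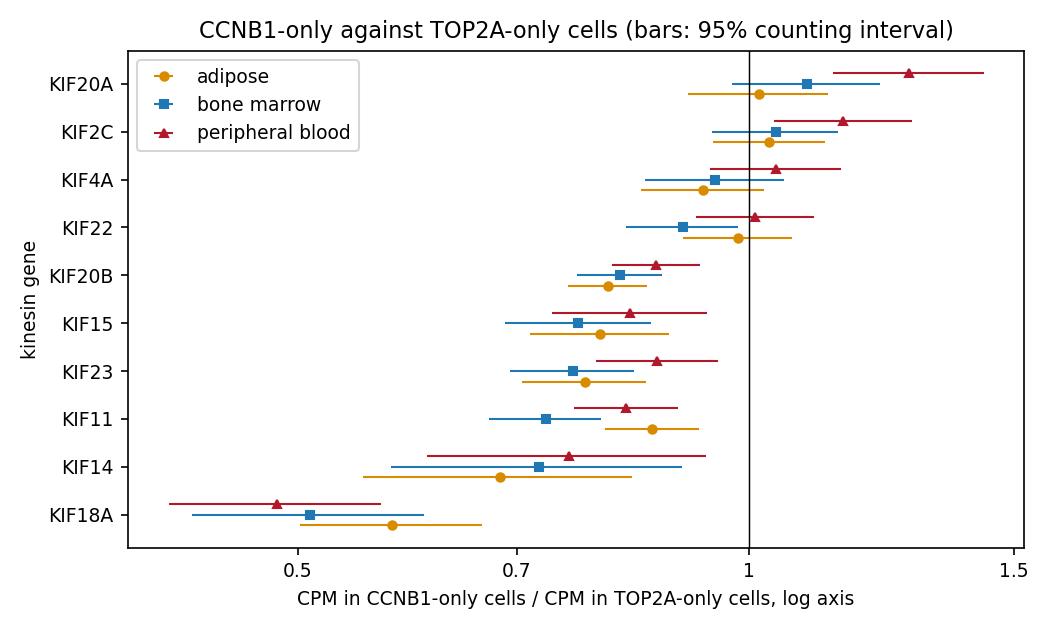
Ratio of CPM in CCNB1-only cells over TOP2A-only cells for the 10 graded kinesins. The x axis is the ratio on a log scale, symbols are libraries, bars are 95% counting intervals and the line marks 1. KIF18A lies lowest, at 0.484 to 0.578, and KIF20A and KIF2C lie at or above 1.01.

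The kinesins were also set beside lists of other genes. A second ranking, by the UMI share of 24 mitotic partner genes (kinases, kinetochore and midzone proteins), was chosen after the data were seen. It compared the top 10% of cells with the lower 50%. By it, 10 kinesins were at least 2-fold higher in each library, as were 1.47% of all genes, and 6 at least 3-fold, as were 0.682%. In this ranking and the next, the listed genes were not left out of the shares of all genes. KIF23 read 4.95, 7.46 and 9.75 times higher in the top cells, KIF11 4.46, 6.48 and 8.39 times and KIF20A 2.50, 3.62 and 5.22 times. The same ranking by 19 replication genes (MCM helicase subunits, PCNA and others) gave 0 of 24 members at 2-fold in each library, against 0.839% of all genes, and 0 at 3-fold, against 0.263%. With 24 members, 0 lies at this background. The top cells of this ranking read TOP2A at 0.645, 0.884 and 1.05 times and CCNB1 at 0.659, 0.753 and 0.664 times the lower cells. KIF24 read highest of the measured members in adipose and bone marrow, at 1.78 and 1.67, and 1.94 in blood. KIF23 was at 0.628, 0.911 and 1.04 by that ranking, and KIF15 at 1.04, 1.40 and 1.65.

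By the ratio of cells with both genes over cells with neither, 16 of the 24 mitotic partners were at least 2-fold higher in each library and 8 at least 3-fold, with median ratios of 2.34, 2.87 and 3.59. Of the kinesins and relatives with other symbols, 2 of 5 measured were at least 2-fold higher in each library. These were the kinetochore kinesin CENPE, at 2.85, 3.48 and 4.26, and the minus-end motor KIFC1, at 2.58, 2.91 and 3.82. The kinesin-2 subunit KIFAP3 was level at 0.951, 0.935 and 0.939. None of 24 cargo adaptors and light chains, 19 dynein and dynactin genes, 19 replication genes or 12 tubulins was 2-fold higher in each library. The tubulins that came nearest were TUBB4B, at 1.54, 1.97 and 2.40, and TUBD1, at 1.84, 2.01 and 2.40.

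Bone marrow and blood held cells rich in macrophage markers, and kinesin levels in them differed from those of the other cells. Cells in which at least 1% of UMIs were of the 18 macrophage markers numbered 454 in bone marrow, 50 in blood and 0 of 6088 in adipose, which allows a share of up to 0.0493%. This is a range along a share, with 608 and 78 cells between 0.5% and 2%. Stromal markers took a median of 0.630% and 0.456% of UMIs in these cells, against 2.41% and 3.50% in the other cells. Their median depth was 6052.5 and 9825 UMIs, against 9214 and 25013. Neither TOP2A nor CCNB1 was found in 91.9% and 88.0% of them, against 49.8% and 53.2% of the other cells.

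KIF13B, a motor of vesicles and membrane receptors, was higher in the macrophage-marker-rich cells of both libraries. It read 18.9 CPM (14.4 to 24.4) in bone marrow against 6.79 in the other cells (2.78-fold, 2.10 to 3.64), and 43.8 CPM (28.1 to 65.2, from 24 UMIs) in blood against 3.76 (11.7-fold, 7.37 to 17.7). Within cells with neither TOP2A nor CCNB1 the ratios were 2.40 and 12.1. KIF16B was 2.18-fold higher in bone marrow (1.64 to 2.84), at 18.9 CPM against 8.67, while in blood its 7 UMIs gave 1.25 (0.501 to 2.58). In all, 2 of 20 members were 2-fold higher and 14 lower in bone marrow, and 1 of 19 higher and 10 lower in blood. All genes at 10 CPM gave 16.6% higher and 34.4% lower in bone marrow, and 19.9% and 26.1% in blood.

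The conventional kinesin KIF5B was lower in these cells, at 198 CPM against 486 in bone marrow and 283 against 704 in blood. KIF3A was lower as well, at 9.61 against 51.3 and 7.30 against 48.4 CPM. KIF27 was level, with ratios of 1.03 (0.759 to 1.37) and 0.881 (0.422 to 1.62). KIF21A had 0 UMIs in the macrophage-marker-rich cells of both libraries. The other cells read 13.7 CPM in bone marrow and 8.53 CPM in blood. The interval of its ratio ran up to 0.0864 in bone marrow and 0.791 in blood. Among cells with neither TOP2A nor CCNB1 it ran up to 0.104 and 1.003, so the interval in blood reached 1. KIF21B, a motor of neurons and leukocytes, had 12 UMIs in all of bone marrow, and 5 of them lay in the 454 cells. Most mitotic motors were lower also among cells with neither TOP2A nor CCNB1. The reference genes differed there as well, so this class did not level them. TOP2A gave 0.136 in bone marrow and 0.192 in blood, and CCNB1 0.124 and 0.169. The share of all genes that were lower within this class was not counted. KIF11 gave 0.162 (0.0944 to 0.261) in bone marrow and 0.0973 (0.0118 to 0.352, from 2 UMIs) in blood, and KIF23 0.261 (0.161 to 0.4002) and 0.227. Some intervals included 1. In blood these were KIF14 at 1.33 (0.361 to 3.45), KIF20B at 0.628 (0.365 to 1.01) and KIF2C at 0.479 (0.155 to 1.12). In bone marrow it was KIF14, at 0.461 (0.167 to 1.02).

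**Figure D5:**
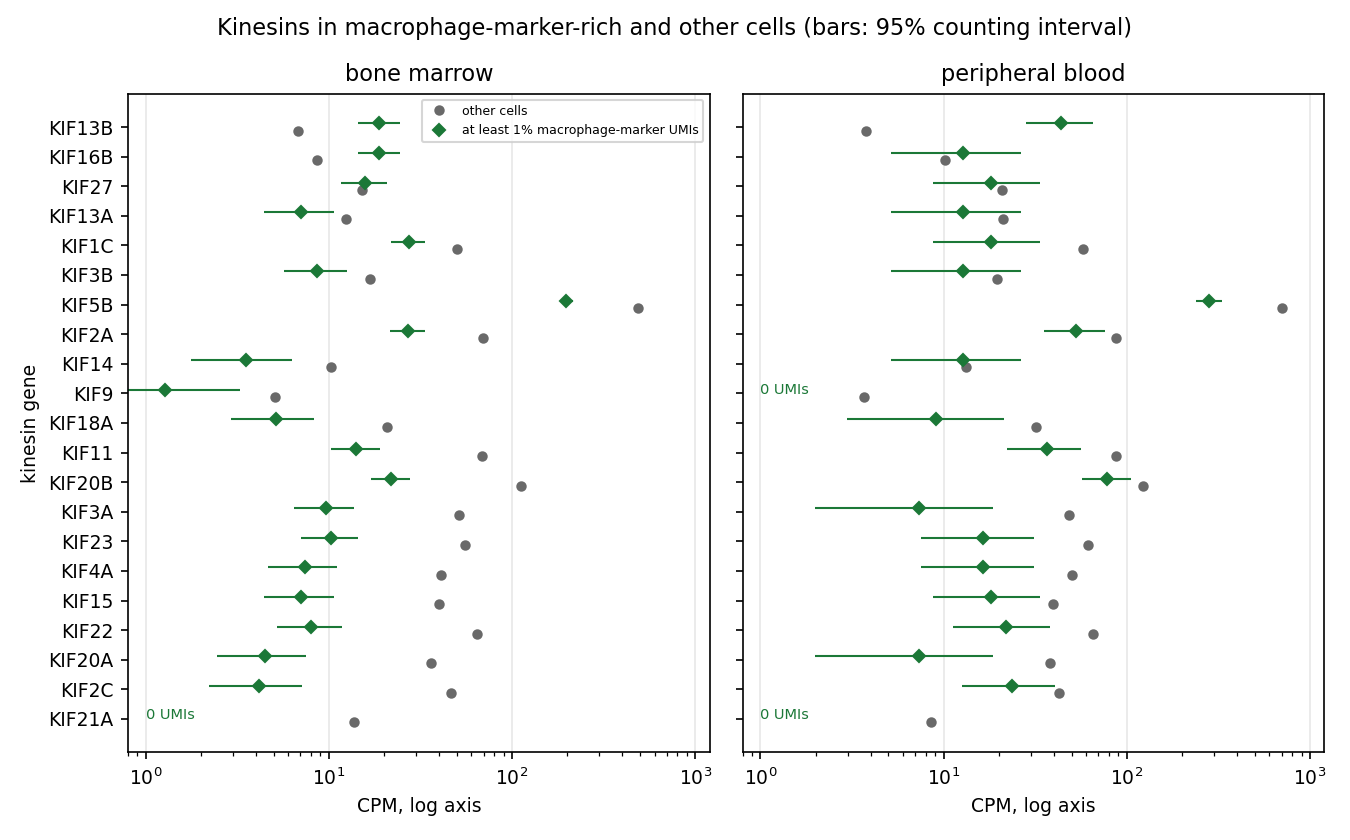
CPM of kinesins in cells with at least 1% macrophage-marker UMIs (green, with 95% counting intervals) and in the other cells (grey), for bone marrow and blood, on a log x axis. Rows are the kinesins at 5 CPM or more in either group of bone marrow, ordered by the bone marrow ratio. KIF13B lies right of the other cells in both panels, at 18.9 and 43.8 CPM; KIF21A had 0 UMIs in both, and KIF9 had 0 in blood.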

How the data were processed

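The deposited values are counts: whole UMIs per gene and barcode over all barcodes, which the authors made with Cell Ranger (6.1.1 per the submitters' processing notes, 4 per the file headers) on build ARS-UCD1.2. The gene annotation: not given in the sources used here. Cells were barcodes whose UMI total reached 1/10 of the 99th percentile among the 3000 largest totals, that is 4438.5, 4414 and 7489 UMIs for adipose, bone marrow and blood. Doublets were not called or removed. Levels are UMIs summed over cells per 1000000. Ratios carry exact conditional 95% intervals. Each cell was thinned to 3000 UMIs (seed 1) for classes only. Calls needed 50 UMIs in each library (classes) or 10 CPM (libraries). The calculations were tested on simulated counts.

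The members, gene lists and rules were chosen with earlier results of these data known. Every member is accounted for, and members of at least 10 CPM are given with values. Other genes come from the lists, at most the 4 highest and lowest. The 10 graded members were grouped after their values were seen. Calculations used Python 3.11.15, numpy 2.4.6, scipy 1.17.1 and edgeR 4.0.16 in R 4.3.3, the last for TMM factors only.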

Additional observations from a re-analysis of the deposited data

Results flagged for a closer look

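KIF20A stood out in data that no comparison used. In the adipose barcodes of 10 to 100 UMIs, taken as free RNA, its CPM was 1.96 times that of the kept cells (83.6 CPM, interval 71.7 to 96.9, against 42.5). In bone marrow the ratio was 1.44 and in blood 0.998. No other member had a free-RNA interval above 1.5 times its level in cells.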

How the results depend on the processing

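No paired analysis was possible because each tissue has 1 library. The count of kinesins that followed at 3-fold, 1 as reported, was 6 when thinned to 6000 UMIs, 0 with 2 UMIs for a class (150, 181 and 64 cells with both), 9 at a ratio of at least 2, 2 with at least 20 UMIs and 2 with at least 1 UMI (KIF18B joins), and 6 by the mitotic partner ranking, which was added after seeing the data. Leaving out each library gave 1 to 6. The 2-fold count, also added later, ranged from 7 to 10, and the 13 that did not follow numbered 13 to 17. With 2 UMIs for a class KIF7 left them and KIF24 joined; KIF5C joined with at least 20 UMIs (14), and KIF1A, KIF5A and KIF26B also with at least 1 UMI (17). Without each library in turn there were 13 to 15; these minimums and omissions were added for this count after seeing the data. With no CPM minimum, 4, 5 and 7 kinesins were 2-fold apart in the pairs adipose and bone marrow, adipose and blood, and bone marrow and blood, all of them under 1 CPM; every other alternative run gave 0. The cause was not tested. Of 72 member ratios, 45 left their counting interval with 2 UMIs for a class, 32 at 6000 UMIs and at most 5 under each other alternative, and 10 changed their side of 1 with 2 UMIs for a class (among KIF1C, KIF3A, KIF3C, KIF7, KIF13B, KIF16B and KIF21A), 4 at 2 times the UMI threshold, 2 without macrophage-marker-rich cells and at most 1 under each other. All were of members that did not follow. Of these only KIF3A and KIF3C in bone marrow had reported intervals above 1 (0.954 and 0.973 with 2 UMIs for a class); KIF9 in adipose read 1.001 at 6000 UMIs. Depth limits the 13 members under 50 UMIs, of which no call was made.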
